A study of Mus musculus with 12 samples.

Results

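Myelin and oligodendrocyte lineage genes were followed in ribosome-associated RNA of the mouse hippocampus. The set holds 31 genes, chosen by name, of the 24421 counted in each library, and all 31 were present and passed the filter on low counts. It comprises 22 genes of mature, myelinating oligodendrocytes and 9 genes of precursor and early differentiating cells (Pdgfra, Cspg4, Olig1, Olig2, Sox10, Gpr17, Vcan, Bcas1 and Enpp6). The 12 libraries came from hippocampi of C57/Bl6 mice aged 6 weeks, 6 labelled control and 6 labelled fear case, with no genetic change named in the labels. The handling text is the same for both groups: single housing, habituation to the test room and 8 min in an unfamiliar context. It then lists a 7 min return to the home cage, with tissue taken at 15 min, again for both groups. It therefore does not say how the control animals differed, nor whether a shock was given. Ribosomes were pelleted through a 1 M sucrose cushion for 4 h, so the values are amounts of pelleted RNA, with no input RNA analysed here. Nothing in the labels ties each library to its own mouse. The p-values therefore rest on the spread among the 12 libraries, part of which may be technical.

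Oligodendrocytes wrap axons in myelin, a stack of membrane rich in galactolipid and cholesterol that insulates the axon and speeds conduction. They arise throughout life from precursor cells that carry the PDGF receptor alpha, under the transcription factors Olig2, Sox10 and then Myrf, which switches on the myelin programme. Some myelin messages, among them Mbp and Mobp, are carried along the processes and translated next to the growing sheath. In the hippocampus the myelin lies mainly in the fimbria, alveus and perforant path, while precursor cells are spread through the tissue.

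Gene counts per library ranged from 18.6 M to 44.2 M with a median of 21.6 M, and fear case 6 was the deepest. Neuronal transcripts of the hippocampus were abundant in every library: Snap25, a synaptic fusion protein, lay between 2759 and 3350 CPM (counts scaled to a common library size with the TMM method). Library fear case 6 also stood apart in its share of ribosomal precursor RNA (Rn45s), at 12.5% of gene counts against 4.55% to 7.98% elsewhere. The groups also differed in choroid plexus markers. All 17 had a negative log2 fold change (median -1.52), 15 at an unadjusted p under 0.05 and 0 called by edgeR. Ttr, the most abundant of them, was at 641 to 1978 CPM in the controls, 7.41 to 335 CPM in fear case 1 to 5 and 1319 CPM in fear case 6.

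Promoter sequences are shown first for 6 mature genes, because mature members varied together between libraries and these 6 span the range of that covariation. Mobp and Nkx6-2 had the lowest unadjusted p in the comparison. Cldn11, Mal and Mag tracked the other mature genes most closely, and Plekhh1 did so least. Each line gives the 250 bases before an annotated start, 5′ to 3′, from the RefSeq table on GRCm38.p6, which matched 23 of the 31 members. Capitals mark ACAAAG or ACAATG (core letters of Sox factor sites), CTGGCAC or CTGGTAC (Myrf), CAGCTG or CATCTG (E-boxes, bound by factors such as Olig2) and TATAAA, on either strand (CTTTGT is ACAAAG on the other strand), where strings may share end letters.
Mobp, chr9:120149492-120149741, plus strand: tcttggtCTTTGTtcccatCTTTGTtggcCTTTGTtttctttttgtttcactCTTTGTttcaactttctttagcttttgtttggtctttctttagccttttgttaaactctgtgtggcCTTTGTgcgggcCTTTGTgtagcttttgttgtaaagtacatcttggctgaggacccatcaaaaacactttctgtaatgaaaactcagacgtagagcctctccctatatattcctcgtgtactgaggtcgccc
Nkx6-2, chr7:139582798-139583047, minus strand: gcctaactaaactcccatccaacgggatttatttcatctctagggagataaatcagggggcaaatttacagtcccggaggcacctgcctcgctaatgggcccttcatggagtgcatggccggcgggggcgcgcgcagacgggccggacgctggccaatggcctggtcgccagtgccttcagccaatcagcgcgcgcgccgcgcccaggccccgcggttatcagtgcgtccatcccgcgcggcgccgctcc
Cldn11, chr3:31149670-31149919, plus strand: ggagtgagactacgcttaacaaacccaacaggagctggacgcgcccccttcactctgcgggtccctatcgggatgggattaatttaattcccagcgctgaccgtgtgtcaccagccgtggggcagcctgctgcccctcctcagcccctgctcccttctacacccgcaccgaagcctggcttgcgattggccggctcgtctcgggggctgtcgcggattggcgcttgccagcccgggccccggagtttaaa
Mal, chr2:127656696-127656945, minus strand: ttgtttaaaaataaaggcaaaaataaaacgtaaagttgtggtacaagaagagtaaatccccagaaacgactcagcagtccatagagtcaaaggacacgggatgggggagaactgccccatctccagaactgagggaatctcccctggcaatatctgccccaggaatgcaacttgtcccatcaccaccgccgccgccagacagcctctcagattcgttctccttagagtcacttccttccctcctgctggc
Mag, chr7:30914923-30915172, minus strand, the most upstream of its 3 windows: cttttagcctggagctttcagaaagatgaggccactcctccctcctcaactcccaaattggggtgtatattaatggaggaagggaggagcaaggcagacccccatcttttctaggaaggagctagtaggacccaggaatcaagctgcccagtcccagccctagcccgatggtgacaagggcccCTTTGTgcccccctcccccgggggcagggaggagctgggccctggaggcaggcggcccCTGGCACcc
Plekhh1, chr12:79028913-79029162, plus strand: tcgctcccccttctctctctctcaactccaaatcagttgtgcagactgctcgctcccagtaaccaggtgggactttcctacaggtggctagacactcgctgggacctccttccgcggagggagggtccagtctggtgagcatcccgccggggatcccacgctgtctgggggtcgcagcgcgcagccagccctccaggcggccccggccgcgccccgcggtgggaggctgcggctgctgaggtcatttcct

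The Mobp window held ACAAAG 6 times, and the Mag window held ACAAAG and CTGGCAC once each. None of the 7 strings was present in the windows of Nkx6-2, Cldn11, Mal and Plekhh1. Over the 26 windows of the 18 mature genes in the table, 34.6% held a Sox string, against 25.2% of all 32851 windows. A Myrf string was present in 15.4% of them against 5.93% of all windows, and an E-box string in 30.8% against 25.5%. A match is only a match of letters.

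Levels between genes were compared per kilobase of exon, with the exons of all annotated transcripts of a gene merged. The order depends on that length, which can exceed that of the transcripts present. Before division by length Mbp was the highest member, at a mean of 478 CPM over 8469 bases, against 269 CPM over 3639 bases for Cnp. Highest per kilobase was Cnp, which encodes a phosphodiesterase of non-compact myelin, at 73.8 ± 14.5 CPM per kb (mean ± SD over 12 libraries). Mal, a membrane proteolipid of myelin, stood at 70.0 ± 11.9 CPM per kb. Qdpr, an enzyme that regenerates tetrahydrobiopterin, followed at 58.3 ± 5.90 and Mbp, the basic protein that compacts the myelin membrane, at 56.5 ± 7.03 CPM per kb. The ranges of these 4 genes overlapped from each to the next. In every library Mbp stood above the next gene, Cldn11, the tight junction claudin of myelin, at 32.6 ± 6.25 CPM per kb, and their ranges did not overlap.

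Among precursor members the transcription factor genes were the most abundant per kilobase. Olig1 stood at 30.9 ± 4.43, Sox10 at 14.7 ± 1.39 and Olig2 at 10.7 ± 1.03 CPM per kb, which placed them among mature genes such as Ermn (29.7 ± 3.70) and Mag (12.5 ± 2.15). These 3 factors are also made by mature oligodendrocytes. Bcas1, which is not one of these factors, came directly after Olig2 at 10.0 ± 0.983 CPM per kb, and their ranges overlapped. Genes that mark precursors more narrowly were low: Pdgfra, the growth factor receptor, at 2.55 ± 0.513, Vcan, a matrix proteoglycan, at 1.19 ± 0.201, and Cspg4, the NG2 proteoglycan, at 0.432 ± 0.124 CPM per kb. Enpp6, a choline phosphodiesterase of newly forming oligodendrocytes, was at 0.874 ± 0.238 CPM per kb. Of the 30 steps from one gene to the next in this order, the ranges over libraries were separate at only 2, below Mbp and below Myrf.

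**Figure D1:**
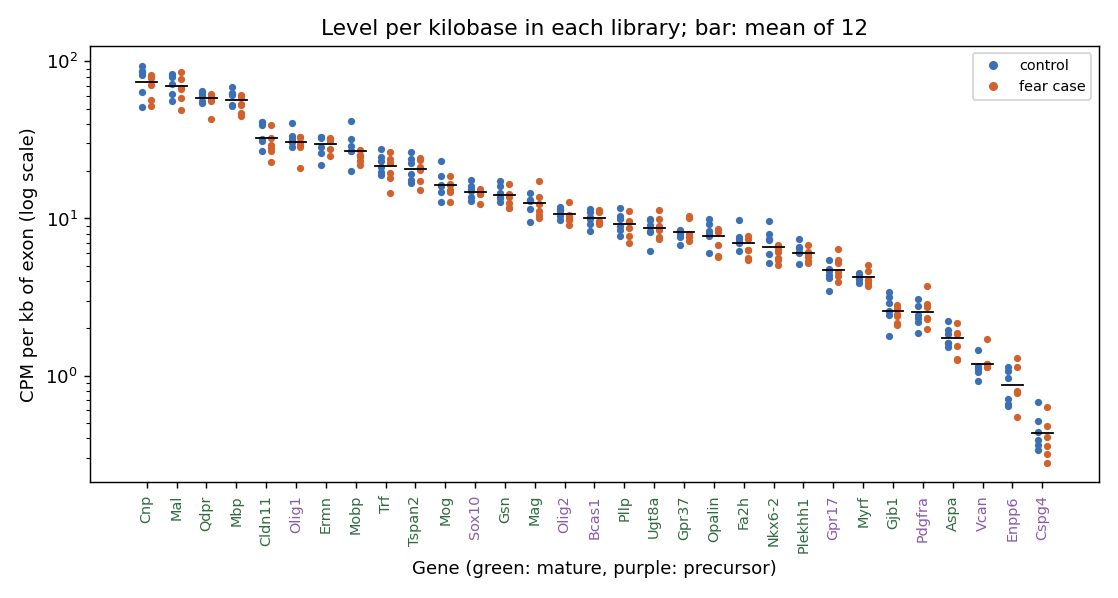
Level of each member per kilobase of exon (CPM per kb, log scale) in the 12 libraries, blue for control and orange for fear case, with the mean of all 12 as a bar. Levels fall from 73.8 for Cnp to 0.432 for Cspg4, and the colours overlap for every gene.

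The design asks whether these messages differed on hippocampal ribosomes between fear case and control. None of the 22 mature members and none of the 9 precursor members was called higher or lower by edgeR's quasi-likelihood test, with p adjusted by Benjamini-Hochberg across the 14564 genes that passed the filter. DESeq2 and limma-voom also called 0 of the 31. Over all genes 0.103% were called, 0.0481% higher and 0.0549% lower, so 0 of 31 is near the background. At an unadjusted p under 0.05 there were 2 mature members, both lower, and 0 precursor members, against 7.14% of all genes, 4.52% lower and 2.62% higher. In no member did the groups separate completely, which they did in 0.597% of all genes, 0.33% lower and 0.268% higher. In the main fit the 95% interval of the fold change lay within 1.5-fold in either direction for all 31 members. The lowest bound was -0.58 (Nkx6-2, with Cspg4 also at -0.58) and the highest 0.47 (Enpp6) on the log2 scale. Those of Nkx6-2 and Cspg4 came close to the limit. The intervals do not cover other settings, where the log2 fold change of Cspg4 ran from -0.31 to 0.35. In bulk tissue, fewer cells of a type and less RNA per cell cannot be told apart.

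**Figure D2:**
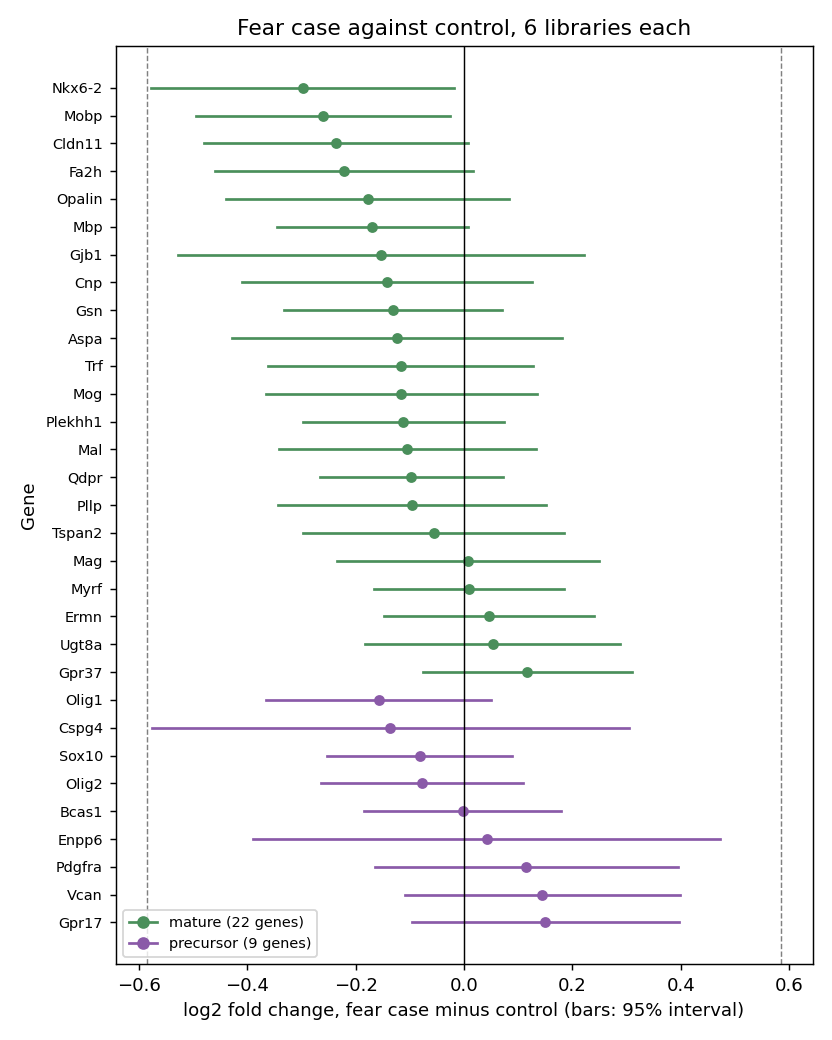
Log2 fold change of fear case over control for the 31 members with 95% intervals, mature genes in green and precursor genes in purple, sorted within each class; dashed lines mark a 1.5-fold change. Every interval lies between the dashed lines, and those of Nkx6-2 and Mobp end just below 0.

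Among mature members 17 of 22 had a negative log2 fold change and the median was -0.12, against 51.4% negative and a median of -0.0046 over all tested genes. The members share libraries and vary together, so this count is not 22 separate observations. Among precursor members 5 of 9 were negative and the median was -0.0028. The mature median stayed between -0.17 and -0.08 whichever library was left out. Within a group, the median deviation of the mature genes varied between libraries with an SD of 0.15 on the log2 scale. That SD is a spread of single libraries, not the error of a difference between group means. With the choroid plexus score (mean log2 CPM of the 17 markers) as a term in the fit the mature median was -0.19, and 0 members were called. That score was 3.14 to 4.22 in the controls, -1.19 to 2.29 in fear case 1 to 5 and 3.92 in fear case 6. Only fear case 6 overlapped the controls, so score and group can hardly be told apart in this fit.

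Of the structural myelin genes, Mobp, a basic protein of the compact sheath, ranged from 138 to 284 CPM in the controls with a median of 191, and from 149 to 186 CPM in fear case with a median of 170. Control 5 was highest, followed by control 6 at 218 CPM, and the lowest library was also a control. The log2 fold change was -0.26 (SE 0.11, edgeR adjusted p = 0.618), and it was -0.14 without control 5.

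Mbp ranged from 441 to 578 CPM in the controls (median 521) and from 381 to 519 CPM in fear case (median 449). Fear case 1 and fear case 6 lay below every control and the others overlapped. The log2 fold change was -0.17 (SE 0.08, edgeR adjusted p = 0.709).

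Cldn11 ranged from 50.1 to 77.3 CPM in the controls (median 66.8) and from 42.9 to 73.9 CPM in fear case (median 54.0), with fear case 1 alone below every control. Its log2 fold change was -0.24 (SE 0.12, edgeR adjusted p = 0.709). For Cnp the controls spanned 187 to 341 CPM (median 306) and fear case 189 to 299 CPM (median 271). For Mal they spanned 156 to 232 CPM (median 210) and 135 to 237 CPM (median 187), so that fear case held both the lowest and the highest library. Their log2 fold changes were -0.14 (SE 0.13) and -0.10 (SE 0.11).

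The other structural and surface members were as close. Mog, an outer sheath glycoprotein, had a log2 fold change of -0.12, Opalin, a sialylated membrane protein of oligodendrocytes, of -0.18, and Mag, the adhesion lectin of the inner sheath, of 0.0075. Tspan2, a tetraspanin, stood at -0.056, Pllp, a proteolipid of the Mal family, at -0.096, Ermn, a cytoskeletal protein of late oligodendrocytes, at 0.046, and Gjb1, the gap junction protein connexin 32, at -0.15. Each of these 7 had an edgeR adjusted p of at least 0.795.

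Among enzymes, Fa2h, which hydroxylates the fatty acids of myelin galactolipids, ranged from 18.6 to 29.3 CPM in the controls (median 21.8) and from 16.3 to 23.3 CPM in fear case (median 18.8). Fear case 1 and fear case 2 lay below every control, and the log2 fold change was -0.22 (SE 0.11, edgeR adjusted p = 0.718). Ugt8a, which makes galactosylceramide from ceramide, had a log2 fold change of 0.053, and Aspa, which splits N-acetylaspartate, of -0.12. Qdpr ranged from 97.1 to 116 CPM in the controls (median 110.2) and from 76.3 to 110.1 CPM in fear case (median 105), with a log2 fold change of -0.097 (SE 0.08, edgeR adjusted p = 0.832). Fear case 6 supplied its lowest value, the next stood at 100.1 CPM, and the log2 fold change was -0.029 without fear case 6.

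Of the regulators in the mature class, Nkx6-2, a homeobox factor of myelinating cells, ranged from 9.93 to 18.4 CPM in the controls (median 14.0) and from 9.65 to 13.0 CPM in fear case (median 11.2). Only fear case 6 lay below every control, and the log2 fold change was -0.30 (SE 0.14, edgeR adjusted p = 0.642). Exons of Nkx6-2 share 246 bases with Inpp5a on the opposite strand, and the strand setting of the counting is not known here, so reads of such partners may be mixed. Opposite-strand exons also overlap for Cnp with Dnajc7, Ermn with Galnt5, Plekhh1 with Pigh, Gpr17 with Lims2, Tspan2 with Tspan2os and Bcas1 with Bcas1os2. Myrf, the factor that drives myelin genes, stood at 36.0 ± 1.86 CPM in control and 36.2 ± 4.38 CPM in fear case (n = 6 each), a log2 fold change of 0.0089.

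The remaining mature members were Gpr37, a G protein-coupled receptor, at a log2 fold change of 0.12, Plekhh1 at -0.11, the actin-severing gene Gsn at -0.13 and the iron carrier Trf at -0.12. Trf is also made by choroid plexus epithelium. The summed level of 17 choroid plexus markers was 813 to 2290 CPM in the controls, 31.0 to 436 CPM in fear case 1 to 5 and 1587 CPM in fear case 6. Trf was highest in control 1 (92.0 CPM) and fear case 6 (88.2 CPM), the libraries with the largest choroid plexus sums. With group means taken out, its correlation with the choroid plexus score over all 12 libraries was 0.17, within a range over members of -0.58 (Mbp) to 0.72 (Cspg4). The part of that tissue in the level of Trf was not tested.

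The transcription factors of the precursor class had negative values. Olig1 ranged from 62.0 to 87.2 CPM in the controls (median 67.5) and from 45.2 to 71.3 CPM in fear case (median 64.8). Its log2 fold change was -0.16 (SE 0.10, edgeR adjusted p = 0.769), and it was -0.078 without fear case 6, the one library below every control. Sox10 ranged from 39.4 to 53.6 CPM in the controls (median 46.2) and from 37.6 to 46.9 CPM in fear case (median 44.2), with a log2 fold change of -0.082. Olig2 ranged from 24.9 to 30.1 CPM (median 28.1) and from 23.1 to 32.2 CPM (median 25.8), with a log2 fold change of -0.078. The groups overlapped for all 3 factors.

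The highest log2 fold changes of the 31 were those of Gpr17 and Vcan, and neither was called. Gpr17, a receptor of cells committed to differentiate, ranged from 17.9 to 28.2 CPM in the controls (median 23.4) and from 20.3 to 33.4 CPM in fear case (median 25.3). Its log2 fold change was 0.15 (SE 0.12, edgeR adjusted p = 0.821). Vcan ranged from 13.4 to 21.05 CPM (median 16.0) and from 16.3 to 24.6 CPM (median 16.9), with a log2 fold change of 0.14 (SE 0.12, edgeR adjusted p = 0.832), which was 0.031 without fear case 6. Pdgfra, at 24.6 ± 4.30 CPM in control and 26.5 ± 6.10 CPM in fear case (n = 6 each), had a log2 fold change of 0.12, and of -0.012 without fear case 6. With the choroid plexus score as a term in the fit, the values were 0.32 for Pdgfra and 0.39 for Vcan, with edgeR adjusted p of 0.698 and 0.607. That fit has the limit given above, since score and group overlap only through fear case 6. Bcas1, a marker of early myelinating cells, stood at -0.0028, Enpp6 at 0.042 and Cspg4 at -0.14.

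Mature genes moved together across libraries. In control 5 all 22 mature genes lay above their mean over the 12 libraries, in control 3 there were 21, in fear case 3 there were 18 and in control 4 there were 16. In control 2 only 4 did so and in fear case 1 only 5. The summed mature level ran from 1671 CPM in fear case 1 to 2296 CPM in control 5. In groups it was 2032 ± 222 CPM for control and 1865 ± 165 CPM for fear case (n = 6 each). As a share of gene counts the mature genes made up 0.205 ± 0.0236% and 0.184 ± 0.0190%, and the precursor genes 0.0260 ± 0.00212% and 0.0249 ± 0.00182%.

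**Figure D3:**
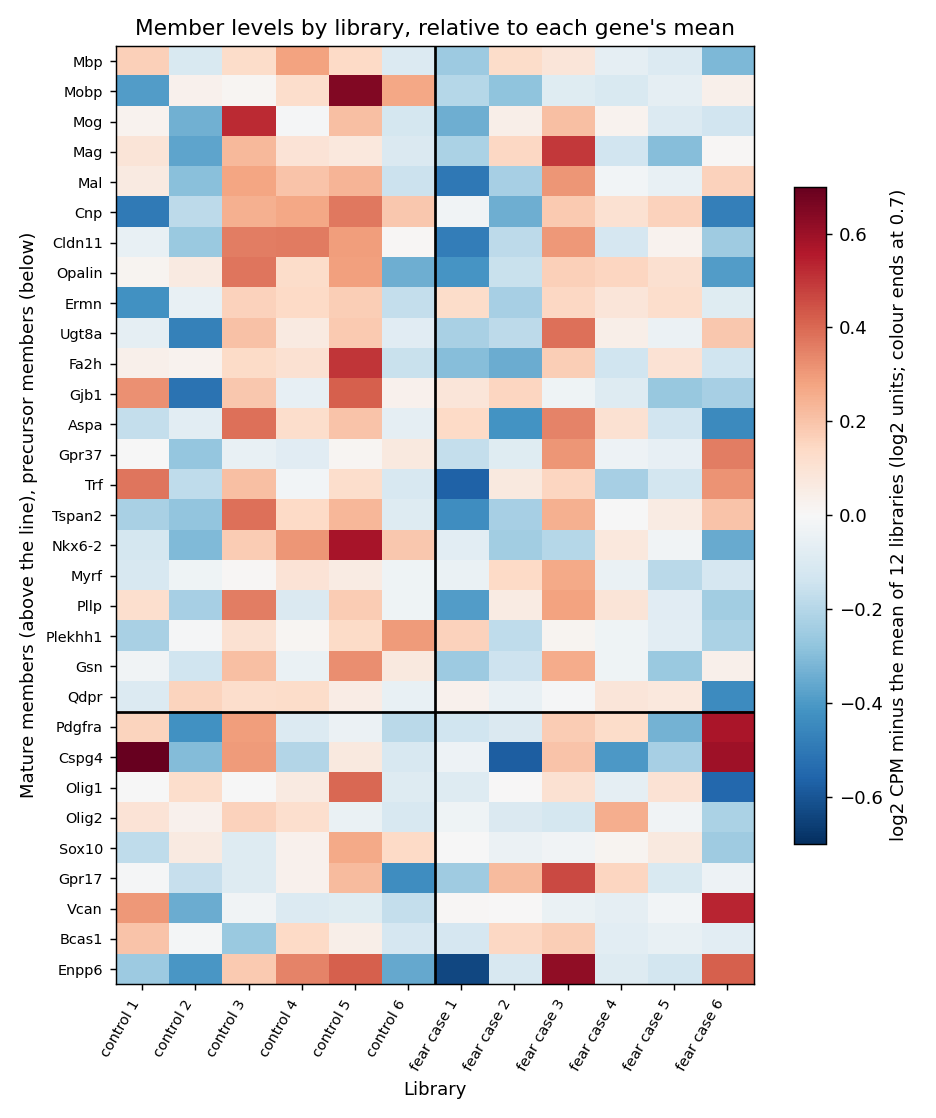
Log2 CPM of each member minus its mean over the 12 libraries, with mature genes above the horizontal line and the controls left of the vertical line; red is above and blue below the mean. Control 5 is red for all 22 mature genes, and fear case 6 combines red Pdgfra, Cspg4 and Vcan with blue Olig1 and Sox10.

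After the group means were taken out, the median correlation between 2 mature genes over the 12 libraries was 0.41, and 87.4% of the 231 pairs were positive. Over all pairs of tested genes the median was -0.004 and 49.6% were positive. Precursor genes had a median of 0.053 over 36 pairs, with 55.6% positive, and of 0.15 without fear case 6, with 66.7% positive. The mature median was 0.30 without control 5 and control 3, whose mean mature level lay farthest from the median of the 12 libraries. It was 0.25 without fear case 3 and control 2, which lay farthest from their own group means, a choice made after the data were seen. These values describe genes measured in the same libraries, which share depth and dissection. Cldn11 had the highest median correlation with the other mature genes, 0.64, followed by Mal at 0.58 and Mag at 0.57. Plekhh1 was lowest at 0.06. Of precursor members, Gpr17 (0.53) and Enpp6 (0.52) had the highest median correlation with the mature genes, while Bcas1 stood at 0.077 and Vcan at -0.056.

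Markers of tissue next to the hippocampus were set beside this pattern. The mean log2 CPM of tested thalamus markers was highest in control 5, at 4.30, and stood at 4.07 in control 3 and 3.86 in fear case 3, within a range of 3.63 to 4.30. Their summed level was 413 to 481 CPM in the controls and 432 to 469 CPM in fear case, and Gbx2 was the 1 of 13 that was not tested for low counts. Adarb1, Rora and Calb2 supplied most of that sum, at means of 197, 71.6 and 58.9 CPM. Of the 12 tested markers 7 had a negative log2 fold change and 5 a positive one, from -0.48 (Tnnt1) to 0.14 (Calb2), with 0 called. Prkcd, Rgs16, Ramp3 and Zic1 were highest in control 5, and the other tested markers in other libraries. The part of thalamus tissue in the mature level was not tested. Astrocyte markers summed to 1821 to 2419 CPM in the controls and 1763 to 2804 CPM in fear case, and microglia markers to 76.5 to 155 CPM and 68.5 to 114 CPM.

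The balance of mature over precursor genes was the difference between their mean log2 CPM. It was 1.26 ± 0.123 in control and 1.16 ± 0.0917 in fear case (n = 6 each). The lowest values were 0.99 in fear case 6 and 1.05 in control 1, and the other 10 libraries lay between 1.16 and 1.38. Those libraries also had the highest choroid plexus scores (mean log2 CPM of 17 markers), 3.92 and 4.22 against -1.19 to 3.84, and the highest astrocyte scores, 5.86 and 5.90 against 5.41 to 5.69. The part of these tissues in the balance was not tested.

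**Figure D4:**
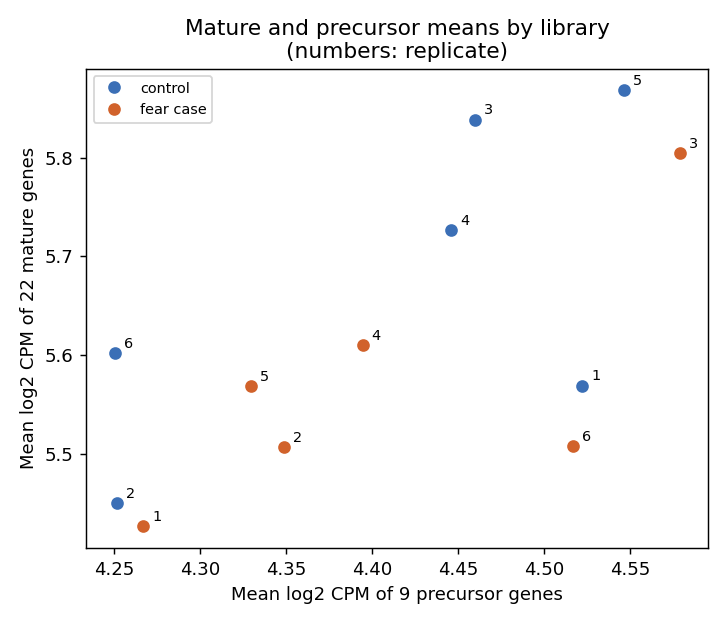
Mean log2 CPM of the 22 mature genes against that of the 9 precursor genes in each library, blue for control and orange for fear case, with replicate numbers. Control 1 and fear case 6 have the smallest differences of mature minus precursor mean, 1.05 and 0.99.

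Fear case 6 departed from the other fear case libraries in opposite directions for different precursor genes. Relative to the mean of fear case 1 to 5, Cspg4 was 0.79 higher on the log2 scale, Pdgfra 0.62 and Vcan 0.55. Olig1 differed by -0.56, Sox10 by -0.25 and Olig2 by -0.22. The first group has the longest exons of the set, 10024 to 14462 bases, and the second 2162 to 3051 bases. All 3 members of 10 kb or more were higher in fear case 6, and all 5 under 2 kb were lower. The same order held over all tested genes with a known length, from a median of -0.16 under 2 kb (1776 genes) to 0.15 at 10 kb or more (1409 genes), and Spearman's rho with length was 0.49 over the members and 0.26 over all 14001 genes. In control 1, Cspg4, Vcan and Pdgfra were higher than in the other controls, by 0.75, 0.45 and 0.25. All genes under 2 kb and those of 10 kb or more had medians of -0.016 and -0.030 in control 1. Control 6 had a trend with length over all genes close to that of fear case 6, with medians of -0.12 under 2 kb and 0.13 at 10 kb or more. Cspg4, Pdgfra and Vcan differed in control 6 from the other controls by -0.22, -0.17 and -0.11. The part of length in these values was not tested. Cspg4 is also a gene of pericytes and Pdgfra one of meningeal fibroblasts. The mean log2 CPM of endothelial and mural markers was 2.01 in fear case 6, the highest of the 12, and 1.68 in control 1, within a range of 1.25 to 1.85 for the other libraries. Their part was not tested.

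**Figure D5:**
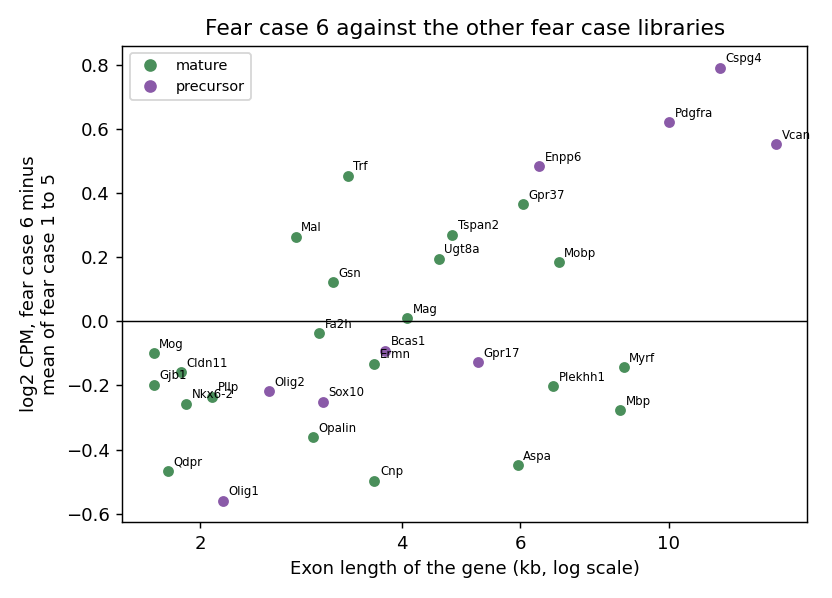
Log2 CPM in fear case 6 minus the mean of fear case 1 to 5 for each member, against exon length (kb, log scale), mature genes in green and precursor genes in purple. The 3 longest genes, Pdgfra, Cspg4 and Vcan, lie at 0.62, 0.79 and 0.55, and the 5 genes under 2 kb lie below 0.

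Further genes of the lineage, taken from lists outside the 31, gave the same count. Of 39 tested genes of mature oligodendrocytes 0 were called with edgeR, DESeq2 or limma-voom. With edgeR 4 had an unadjusted p under 0.05, or 10.3% against 7.14% of all tested genes. The median log2 fold change was -0.042, with 25 negative and 14 positive. The lowest p values belonged to Enpp2 (log2 fold change -0.97, SE 0.40, edgeR adjusted p = 0.613), Dock5 (-0.26, adjusted p = 0.613) and Ppp1r14a (-0.23, adjusted p = 0.644). Enpp2, which encodes the lysophospholipase autotaxin, is made by choroid plexus as well as oligodendrocytes. Without fear case 6 its log2 fold change was -1.86 (SE 0.22, edgeR adjusted p = 5.3e-05), the single call on these lists in any of the 21 alternative settings. That setting called 128 of 14665 tested genes, against 15 in the main fit.

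Of 20 further precursor genes 0 were called with the 3 tools and 0 had an unadjusted p under 0.05 with edgeR. Their median log2 fold change was -0.022, with Sema5a, an axon guidance gene, at 0.18, Ptprz1, a receptor phosphatase, at 0.31 and the homeobox gene Nkx2-2 at -0.26. Genes of differentiating cells had a median of 0.018 over 14 tested, again with 0 called and 0 at an unadjusted p under 0.05. Cnksr3 (-0.25), Zfp488 (0.25) and Itpr2 (0.17) had the lowest p among them.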

How the data were processed

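Libraries of polyribosomal RNA from mouse hippocampus, 12 in all, were read on an Illumina NextSeq500 as read pairs of 40 bp after the SMARTer total RNA-seq kit, per the labels' protocols. Each deposited file lists raw counts by gene symbol, as whole numbers. Cutadapt, TopHat, Bowtie, HTSeq and mm10 are named in the submitters' processing notes. Versions, annotation and strand setting: not given in the sources used here. Counter summary lines were left out, and 25.5% to 33.3% of counts fell on no gene.

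Counts were tested in R 4.3.3 with edgeR 4.0.16: filterByExpr by group (minimum count 10, minimum total 15), TMM, the quasi-likelihood test without covariates, and calls where the adjusted p was under 0.05. Standard errors come from F, as log2 fold change over its square root, and log2 CPM has a prior count of 2. Alternatives used DESeq2 1.42.0, limma 3.58.1, other scalings and filters, a replicate block, a choroid plexus covariate and each library left out. The median depth was 21.6 M counts, and members had at least 57 raw counts in every library. Exon lengths and overlaps come from GENCODE vM21 (GRCm38, the assembly of mm10).

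The members and lists were chosen with earlier results of these data known. All members are given. Values by library are for the 5 of lowest p and the 3 highest per kilobase in each class, and other lists by the 3 of lowest p. Pdgfra, Cspg4, Myrf, Trf, Ttr and Snap25 were named in more detail after their values were seen.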

Additional observations from a re-analysis of the deposited data

Results flagged for a closer look

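A library that stood apart from the other 5 of its group, by a gap to its nearest neighbour above Dixon's 95% critical share of the group's range on the log2 scale, was found in 4 of 62 groups of 6 values (31 genes in 2 groups). Chance alone flags about 1 in 20 groups. All 4 concerned fear case 6. Qdpr stood at 76.3 CPM there against 100.1 to 110 CPM in fear case 1 to 5. Olig1 stood at 45.2 CPM against 62.0 to 71.3 CPM, and Sox10 at 37.6 CPM against 43.4 to 46.9 CPM. Vcan stood at 24.6 CPM against 16.3 to 17.1 CPM. Counted by library, fear case 6 stood apart in this way for 12.9% of the 31 members and for 4.24% of all genes. Each of the other 11 libraries did so for 0% of the members and for 0.469% to 1.87% of all genes.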

How the results depend on the processing

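Over 21 alternative settings 0 of the 31 members were called. The lowest adjusted p was 0.265, for Mobp without control 1. The number of all genes called was 15 and became 59 with DESeq2, 37 without a filter on low counts, 5 with a covariate for the choroid plexus markers, and 9 to 128 with one library left out, 128 without fear case 6 and 9 without control 3 or fear case 2. Calls on the other lineage lists ranged from 0 to 1 with one library left out. The cause was not tested. The mature median ranged from -0.19, with that covariate, to -0.08, that of the precursors from -0.060 to 0.027, and their difference from -0.16 to -0.035, against a main value of -0.11. With numbered libraries taken as a replicate block, the median was -0.12 for mature and 0.00049 for precursor members, 18 of all genes were called, and 0 members. Same-numbered libraries deviated together with a correlation of -0.17 to 0.05 and 2 of 12 correlated best with their own number, so the numbers are not taken as pairs.

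With the choroid plexus covariate the log2 fold change was -0.35 for Mbp, -0.27 for Cnp, -0.34 for Opalin, -0.28 for Pllp, -0.25 for Qdpr and -0.35 for Olig1. Each was at least 1.5 times its main size, at edgeR adjusted p of 0.591 or more. This is not a full list, and 18 mature values were negative and 4 positive in that fit. Over the settings that kept all 12 libraries, the range was -0.22 to -0.099 for Mog and -0.17 to -0.078 for Olig2. It was 0.11 to 0.23 for Gpr37, -0.13 to -0.017 for Trf and -0.11 to -0.041 for Mal. Signs of uncalled values turned in some settings. With that covariate the log2 fold change was -0.090 for Mag, -0.13 for Myrf, 0.023 for Tspan2, 0.35 for Cspg4 and -0.026 for Gpr17. With limma-voom it was -0.012 for Mag and -0.0058 for Myrf, with upper-quartile factors -0.00020 for Mag, and with the replicate block -0.0039 for Mag and 0.00049 for Bcas1. With one library left out, the range was -0.11 to 0.064 for Mag, -0.020 to 0.096 for Ermn, -0.024 to 0.10 for Ugt8a, -0.11 to 0.022 for Tspan2, -0.046 to 0.045 for Myrf, -0.012 to 0.19 for Pdgfra, -0.31 to 0.020 for Cspg4, -0.051 to 0.042 for Bcas1 and -0.092 to 0.15 for Enpp6. Depth limits Gjb1, Cspg4 and Enpp6 most, at 57 to 301 counts.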

Other observations

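Genes that make the lipids of myelin and the signals that act on the lineage were examined as lists outside the 31 members. Of 26 genes of cholesterol and galactolipid synthesis 0 were called with edgeR, DESeq2 or limma-voom. With edgeR 1 had an unadjusted p under 0.05, or 3.85% against 7.14% of all tested genes. Their median log2 fold change was -0.055. Pmvk, which encodes the phosphomevalonate kinase of the cholesterol pathway, had the lowest p, with 30.5 ± 3.18 CPM in control and 26.4 ± 1.70 CPM in fear case (n = 6 each) and a log2 fold change of -0.21 (SE 0.09, edgeR adjusted p = 0.613). Mvk, the kinase before it, stood at -0.22 and Nsdhl, a sterol dehydrogenase, at -0.22.

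Of 15 tested genes of growth factors, receptors and inhibitors that act on oligodendrocyte precursors, 0 were called and 0 had an unadjusted p under 0.05, with a median of -0.056. Pdgfa, the ligand of the receptor encoded by Pdgfra, had 30.3 ± 2.34 CPM in control and 27.3 ± 3.49 CPM in fear case (n = 6 each). Its log2 fold change was -0.15 (SE 0.09, edgeR adjusted p = 0.763). Lpar1, a lysophosphatidic acid receptor of oligodendrocytes, stood at -0.21, and Erbb2, a neuregulin co-receptor with a mean of 0.836 CPM in control and 0.486 CPM in fear case, at -0.73 (SE 0.44).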
